A study of Homo sapiens with 4 samples.

Results

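Regions listed as reduced in H3K4me3 in MDA-MB-231 cells at 2.5 μM Tat-SID, and not listed at 1 μM, numbered 1920. They were chosen by the calls themselves: a region was taken as added at 2.5 μM when it was on the authors' list of reduced regions for 2.5 μM Tat-SID and shared 0 bp with every region on the list for 1 μM. The 1920 added regions were 93.1% of the 2063 reduced regions at 2.5 μM (exact Clopper-Pearson 95% confidence interval 91.9% to 94.1%), and the other 143 overlapped the 141 regions reduced at 1 μM. Added regions covered 9713580 of 10993537 bp of reduced sequence. MDA-MB-231 is an established triple-negative breast cancer (TNBC) cell line, and Tat-SID is a cell-penetrating peptide that joins the SIN3 interaction domain of a MAD protein to the Tat transduction sequence. Native ChIP-Seq for H3K4me3 was done in untreated cells, in cells given 1 μM Tat-SID and in cells given 2.5 μM Tat-SID, with 1 library each and 1 library of input DNA, and each treated library was called against the same untreated library. Chromatin was cut with micrococcal nuclease, the duration of treatment is not given in the labels, and the untreated cells had no control peptide. The lists hold positions only, so the amount of H3K4me3 lost at a region is unknown. No difference between doses was tested, and absence from the 1 μM list does not show that H3K4me3 was kept at that dose. All intervals given here cover counting error only.

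H3K4me3 is deposited by SET1 and MLL family methyltransferases around the start sites of transcribed genes, and most CpG island promoters carry it, also where transcription is low. It is removed by KDM5 demethylases. SIN3A and SIN3B are scaffolds without DNA-binding activity of their own, which bring histone deacetylases and KDM5 enzymes to factors such as MAD proteins and several KLF proteins that carry a SIN3 interaction domain.

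Sequences around the gene starts of 6 genes with an added region are printed first, because they differ in composition. A gene start here is the outermost annotated start of the gene, so a printed window need not hold its main promoter. CD44 had the longest region among the genes the study names, and the others come from the gene groups with the largest shares of members. Each runs 5′ to 3′ along the strand of the gene, in GRCh37, from 250 bases before the gene start to 50 bases after it. CD44, the hyaluronan receptor, lies at chr11:35160179-35160478 on the plus strand. TRA2B, a regulator of exon choice, lies at chr3:185655842-185656141 on the minus strand. H2AC6, a replication-dependent histone gene, lies at chr6:26124123-26124422 on the plus strand. CCN1, a secreted matrix protein induced by YAP, lies at chr1:86046194-86046493 on the plus strand. AXL, a receptor tyrosine kinase, lies at chr19:41724878-41725177 on the plus strand. ARID1A, a DNA-binding subunit of SWI/SNF remodelling complexes, lies at chr1:27019477-27019776 on the plus strand. Capitals mark exact matches, on either strand, to any of 8 short motifs: the E-box (CACGTG), the GC box (GGGCGG), the CCAAT box (CCAAT), the TATA box (TATAAA), the cyclic AMP response element (TGACGTCA), a site for ETS factors (CCGGAAG), an NRF1 half-site (GCATGCGC) and the AP-1 site (TGAGTCA).
CD44: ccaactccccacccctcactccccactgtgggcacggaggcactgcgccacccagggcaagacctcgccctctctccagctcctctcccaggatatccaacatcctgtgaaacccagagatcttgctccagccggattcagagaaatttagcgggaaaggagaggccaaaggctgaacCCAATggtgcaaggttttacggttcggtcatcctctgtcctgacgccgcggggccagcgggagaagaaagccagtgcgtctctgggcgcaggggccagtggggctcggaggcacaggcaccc
TRA2B: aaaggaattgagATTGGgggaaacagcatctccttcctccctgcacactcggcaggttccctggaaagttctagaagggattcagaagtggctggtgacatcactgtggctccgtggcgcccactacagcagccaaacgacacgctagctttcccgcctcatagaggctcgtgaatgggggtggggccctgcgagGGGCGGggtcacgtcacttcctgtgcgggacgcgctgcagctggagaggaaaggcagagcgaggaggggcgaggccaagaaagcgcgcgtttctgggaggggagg
H2AC6: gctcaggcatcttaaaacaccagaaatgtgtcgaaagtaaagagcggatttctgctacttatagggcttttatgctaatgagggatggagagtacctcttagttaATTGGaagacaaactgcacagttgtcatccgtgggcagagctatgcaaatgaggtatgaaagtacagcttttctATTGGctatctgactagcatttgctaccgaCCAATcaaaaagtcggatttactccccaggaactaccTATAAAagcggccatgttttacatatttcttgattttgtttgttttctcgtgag
CCN1: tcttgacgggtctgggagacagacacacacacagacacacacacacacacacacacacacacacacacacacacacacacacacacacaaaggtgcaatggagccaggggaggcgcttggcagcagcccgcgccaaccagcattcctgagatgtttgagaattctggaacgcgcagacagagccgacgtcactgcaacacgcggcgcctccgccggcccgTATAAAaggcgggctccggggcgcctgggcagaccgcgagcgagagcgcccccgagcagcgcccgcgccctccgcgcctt
AXL: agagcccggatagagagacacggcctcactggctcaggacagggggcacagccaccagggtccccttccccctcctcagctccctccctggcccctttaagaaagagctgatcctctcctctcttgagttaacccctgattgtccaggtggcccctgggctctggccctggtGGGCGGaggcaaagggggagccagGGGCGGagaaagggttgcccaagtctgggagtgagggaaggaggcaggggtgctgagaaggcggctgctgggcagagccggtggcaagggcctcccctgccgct
ARID1A: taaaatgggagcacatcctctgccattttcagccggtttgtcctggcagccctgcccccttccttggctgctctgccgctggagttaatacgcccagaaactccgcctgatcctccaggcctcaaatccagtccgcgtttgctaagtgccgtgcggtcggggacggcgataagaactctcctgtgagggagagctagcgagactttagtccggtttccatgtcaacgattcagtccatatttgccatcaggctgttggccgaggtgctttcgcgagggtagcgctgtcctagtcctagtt
The GC content of these windows ran from 40.7% at H2AC6 to 66.0% at AXL, and the number of CpG dinucleotides from 7 at H2AC6 and at AXL to 27 at CCN1. The CCN1 window held a TATA box 30 bases before the gene start and the H2AC6 window held 3 CCAAT boxes and a TATA box, while the ARID1A window held none of the 8 motifs.

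The added regions were mostly promoter regions. A protein-coding gene start lay within 3 kb of 1418 of the 1920 regions (73.9%, 95% interval 71.8% to 75.8%). A further 189 regions (9.84%) had only the start of a non-coding gene or pseudogene in that window, and 313 (16.3%) had no gene start. With the starts of all protein-coding transcripts the first share was 84.5%, so some of these regions lay at other protein-coding starts. Among the 143 regions shared with 1 μM, 82 (57.3%, 48.8% to 65.6%) had a protein-coding start, 23 (16.1%, 10.5% to 23.2%) had only another kind of gene start and 38 (26.6%, 19.5% to 34.6%) had no gene start. The length of added regions ran from 199 to 15799 bp with a median of 4849 bp, and that of shared regions from 4099 to 27349 bp with a median of 8449 bp. Length enters the calls that chose the regions, since a longer region can hold more reads and meets a 1 μM region more easily, and these differences were not tested.

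The added regions gave 1817 protein-coding genes with a start within 3 kb, which is 9.04% of the 20090 that were placed (8.65% to 9.45%, chromosome Y left out). This share is the background for every gene group below. For 1755 of the 1817 genes the region covered the start itself. The regions shared with 1 μM gave 100 genes, 0.498% of the same set. A single gene, EVI2B, had both kinds of region, with an added region 1001 bp from a 1 μM region. In 1065 regions there was 1 protein-coding start, in 314 there were 2, and in 39 there were at least 3, with a maximum of 6. In 171 regions, or 12.1% of those at protein-coding genes, a divergent pair of genes started within 1 kb of each other, so that members of such a pair share 1 call and are not separate events.

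Added regions that covered a single annotated gene start reached mainly downstream of it. As that start is the outermost one annotated, a promoter farther inside the gene also counts as downstream reach. Starts of single transcripts were not used for this result. In the 495 regions with a single annotated start that they covered, the region reached a median of 1167 bp upstream and 3523 bp downstream, and it extended farther downstream than upstream in 474 of 495 (95.8%, 93.6% to 97.4%). At CpG promoters, defined as a GC content over 50% and an observed to expected CpG ratio over 0.6 in 1 kb on each side of the start, the medians were 1298 bp upstream and 3619 bp downstream in 326 regions. At the other promoters they were 959 bp and 3023 bp in 169 regions. The reach along the gene was thus similar in form at both kinds of promoter, and its median was shorter on both sides without CpG enrichment. Far downstream the order was the opposite: 4.91% of the regions at CpG promoters and 7.10% of the others still covered the position at 6 kb. This difference was not tested.

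**Figure D1:**
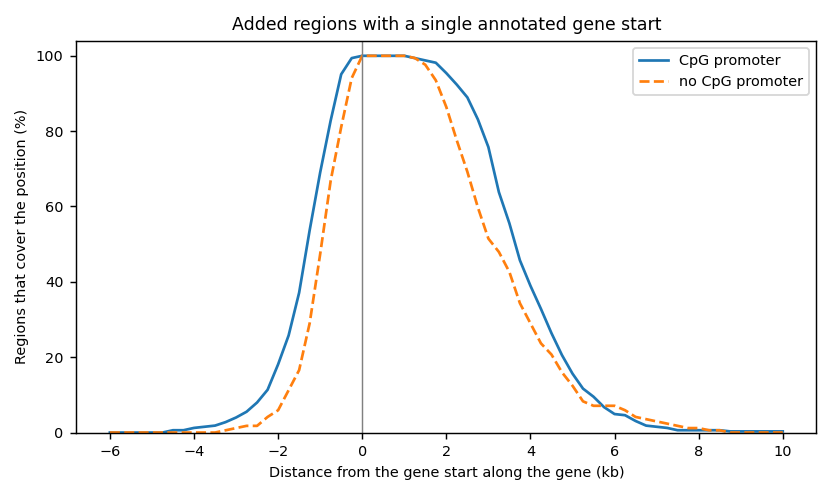
Share of added regions that cover each position around the gene start, against distance along the gene in kb, for the 326 single-start regions at CpG promoters (solid) and the 169 at other promoters (dashed). Both curves fall faster upstream than downstream of the start, and 39.0% of the regions at CpG promoters and 29.0% of the others still covered the position 4 kb downstream.

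CpG promoters made up 68.3% of the genes with an added region (1241 of 1817, 66.1% to 70.4%), 46.9% of all protein-coding genes and 72.0% of the 100 genes shared with 1 μM (62.1% to 80.5%). Seen from the genes, 13.2% of the 9428 genes with a CpG promoter had an added region, against 5.40% of the 10662 without (4.98% to 5.85%). The richest promoters were not the ones most often listed. Among CpG promoters the share with an added region was 19.1% at a GC content of 50% to 55%, 15.3% at 55% to 60%, 11.1% at 60% to 65%, 6.24% at 65% to 70% and 4.41% at 70% to 75%. The median GC content was 57.2% in CpG promoters with an added region and 59.7% in those with no reduced region at 2.5 μM. GC content can change how well fragments are sequenced, and its part in these shares was not tested. Genes with an added region were also longer, with a median of 44.3 kb against 37.1 kb for all CpG-promoter genes and 27.3 kb for all protein-coding genes.

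**Figure D2:**
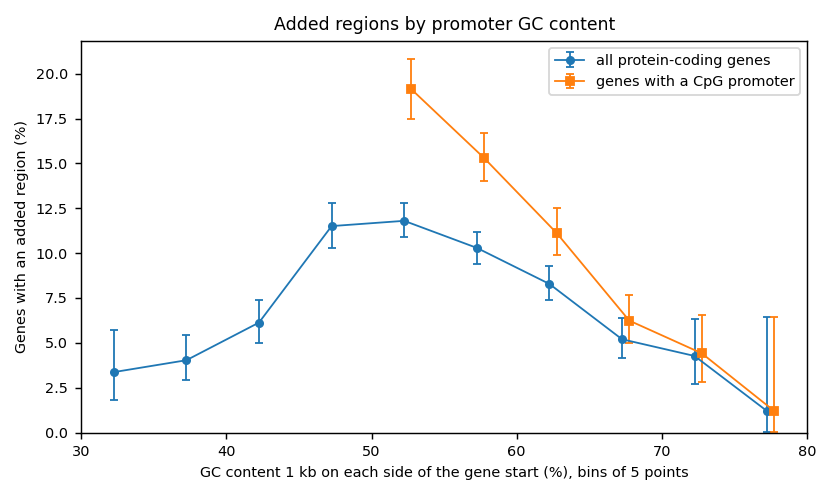
Share of protein-coding genes with an added region (vertical axis, percent) in bins of promoter GC content (horizontal axis, percent), for all genes (circles) and for genes with a CpG promoter (squares), with exact 95% binomial intervals. Among CpG promoters the share falls from 19.1% in the lowest bin to 4.41% at 70% to 75% GC.

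Of the motifs, the GC box was in 61.5% of the promoter windows of genes with an added region and in 52.2% of all 20090 windows, the CCAAT box in 39.8% and 35.8%, and the ETS site in 16.7% and 11.8%. The remaining shares, again for added genes and then for all, were 8.97% and 10.9% for the TATA box, 7.98% and 8.33% for the E-box, 5.56% and 3.74% for the NRF1 half-site, 4.02% and 2.28% for the cyclic AMP response element and 3.36% and 3.98% for the AP-1 site. Within CpG promoters alone, the GC box was in 72.0% of added windows (69.5% to 74.5%) and in 75.4% of windows with no reduced region. The order of these shares within CpG promoters was the opposite of that over all genes for the GC box. It was also the opposite for the TATA box, at 6.69% (5.36% to 8.22%) against 5.11%, and for the AP-1 site, at 2.58% (1.77% to 3.62%) against 1.66%. CpG promoters with an added region had the lower median GC content, as given above, and its part in these shares was not tested. The CCAAT box was the more frequent in added windows there too, at 37.1% (34.5% to 39.9%) against 33.2%, as did the cyclic AMP response element, at 4.35% (3.29% to 5.64%) against 2.99%. These are matches of letters, and no factor's binding was measured.

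Gene groups were then read as the number of members with an added region among the members annotated, beside the 9.04% of all protein-coding genes. Of 60 groups, 42 had a share above that of all genes, 16 had a 95% interval wholly above it, 6 had one wholly below it, and 7 had no member. Together the groups held 586 of the 1817 genes, and 1231 were in none. By broad function the shares were, for cell cycle and DNA genes, 20.9% (77 of 369), RNA and translation 19.3% (103 of 535), protein turnover 14.4% (80 of 557), signalling 11.9% (56 of 472), transcription 11.2% (117 of 1043), traffic and organelles 11.2% (84 of 753), cytoskeleton and adhesion 11.2% (49 of 438), metabolism 8.05% (12 of 149) and tissue-restricted genes 0 of 700, which allows a share of up to 0.526%. Since the lists hold no level in untreated cells, a gene whose promoter had no H3K4me3 to lose could not appear, and the share of a group also depends on how many of its members carried the mark.

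**Figure D3:**
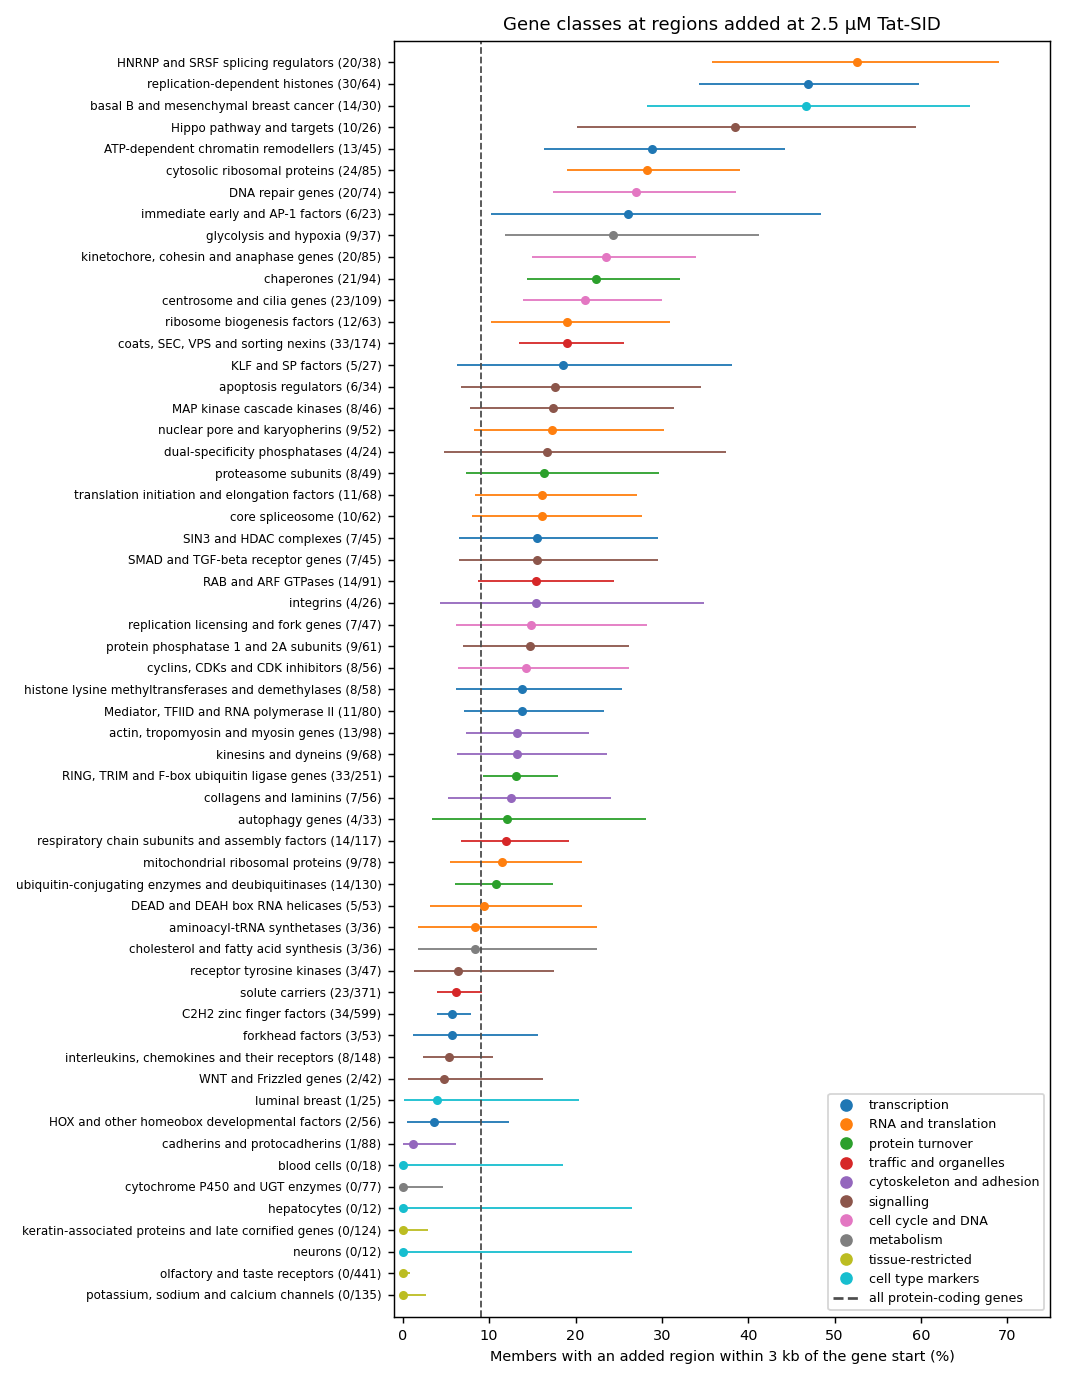
Share of members with an added region (horizontal axis, percent) in gene groups, coloured by broad function, with exact 95% binomial intervals and the number of members in brackets. The dashed line is the 9.04% of all protein-coding genes, and the groups run from 52.6% for HNRNP and SRSF splicing regulators to 0 for olfactory and taste receptors and for ion channels.

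The largest share was among regulators of alternative splicing. Of 38 HNRNP, SRSF and TRA2 genes, whose proteins bind pre-mRNA and steer exon choice, 20 had an added region (52.6%, 35.8% to 69.0%), and 2 others, HNRNPA2B1 and SRSF3, had a region shared with 1 μM. Among members with a CpG promoter the count was 16 of 28 (57.1%), beside 13.2% of all genes with one. The TRA2B region was the longest, at 10749 bp, and reached 10440 bp into the gene from 308 bp before its start. HNRNPDL had a region of 8849 bp, its neighbour HNRNPD, which encodes the mRNA decay factor AUF1, one of 7749 bp, and HNRNPH3 one of 7399 bp. Core spliceosome proteins, which carry out the cut rather than choose it, had an added region in 10 of 62 (16.1%, 8.02% to 27.7%), with SF3B3 at 6099 bp and SF3A2 at 5849 bp. DEAD and DEAH box RNA helicases were at the background, with 5 of 53 (9.43%), among them DDX3X at 9049 bp and DDX5 at 6299 bp.

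The translation apparatus was unevenly represented. Cytosolic ribosomal proteins had an added region in 24 of 85 genes (28.2%, 19.0% to 39.0%), led by RPLP0 of the ribosomal stalk at 9899 bp, RPL27A at 8649 bp and RPS18 at 7599 bp. Their mitochondrial counterparts had one in 9 of 78 (11.5%, 5.41% to 20.8%), with MRPL14 at 7499 bp. Ribosome assembly factors were at 12 of 63 (19.0%), with the box C/D snoRNP protein NOP58 at 5649 bp, and initiation and elongation factors at 11 of 68 (16.2%), with the helicase EIF4A2 at 9749 bp and EIF2S1, the alpha subunit of eIF2, at 6049 bp. Of the enzymes that charge tRNAs, 3 of 36 had one (8.33%): IARS1, TARS1 and YARS1. Nuclear transport genes were at 9 of 52 (17.3%), among them the exportins XPO1 at 5949 bp and XPO5 at 5299 bp. None of these translation genes had a region shared with 1 μM, but only 0.498% of all protein-coding genes had one, so this absence says little. RPL30, which the study used as a reference gene, also had an added region, of 5049 bp.

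Replication-dependent histone genes, which supply nucleosomes in S phase, had an added region in 30 of 64 (46.9%, 34.3% to 59.8%). These 30 genes lay in only 15 regions, so the count is not one of 30 separate calls. Of these regions, the one from 27773951 to 27782999 on chromosome 6 of GRCh37 covered the starts of H2AC13, H2AC14, H2BC13, H2BC14 and H3C10, and that from 26120851 to 26130199 covered H2AC6 and H2BC4. The whole canonical transcript lay inside the region for 28 of the 30, as these genes are short. Only 111 of 1810 genes with an added region and a canonical transcript were covered whole (6.13%). The authors' alignment kept reads that match several places and gave each 1 position, so reads from near-identical histone genes could be placed on one another.

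Chromatin regulators themselves were on the list. ATP-dependent remodellers, which slide or evict nucleosomes, had an added region in 13 of 45 genes (28.9%, 16.4% to 44.3%), and ARID2 and CHD2 had a region shared with 1 μM. ARID1A had the longest region, at 10749 bp, followed by BRD2 at 9199 bp, which is counted by its name and is a bromodomain reader of acetylated histones rather than a remodeller, by ARID1B at 8549 bp and CHD1, a remodeller that binds H3K4me3, at 5999 bp. Subunits of SIN3 and other deacetylase complexes had one in 7 of 45 (15.6%, 6.49% to 29.5%). SIN3A, the scaffold that binds SIN3 interaction domains, had a region of 7849 bp from 1316 bp upstream to 6532 bp downstream of its start, which held exon 1 of its canonical transcript. ARID4B and ARID4A, which associate with SIN3A, had regions of 6949 and 5199 bp, and the corepressor NCOR1 one of 5799 bp. SAP30, another SIN3 subunit, had a region shared with 1 μM. Among histone lysine methyltransferases and demethylases 8 of 58 had one (13.8%, 6.15% to 25.4%), including KMT2C, an H3K4 methyltransferase at enhancers, at 5649 bp, the H3K27 demethylase KDM6A at 5599 bp, and the H3K4 demethylase KDM5A at 4899 bp, a region that it shared with the start of a second protein-coding gene.

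Sequence-specific transcription factors divided by family. Immediate early and AP-1 factors, which growth factors or stress induce within minutes, had an added region in 6 of 23 (26.1%, 10.2% to 48.4%), and the regions were long: IER2 had 9749 bp, FOSL2 9449 bp, MYC 8899 bp and JUN 7299 bp. FOSL1 had a region shared with 1 μM. KLF and SP factors were at 5 of 27 (18.5%, 6.30% to 38.1%), with KLF6 at 10299 bp, KLF3 at 7149 bp, KLF9 at 6049 bp and SP3 at 5599 bp. C2H2 zinc finger factors, the largest group, had one in 34 of 599 (5.68%, 3.96% to 7.84%), and in 17 of 289 with a CpG promoter (5.88%). The longest region of this group, at ZFP36L1, belongs by name only, since that protein binds mRNA and promotes its decay, and the next was at ZNF608, with 9899 bp. HOX and other homeobox developmental factors had 2 of 56 (3.57%, 0.435% to 12.3%), among them PITX1, and no HOX gene. Forkhead factors had 3 of 53 (5.66%): FOXP1 at 9049 bp, FOXC1 at 5499 bp and FOXN3 at 3049 bp. The general machinery of Mediator, TFIID and RNA polymerase II was at 11 of 80 (13.8%), with the polymerase subunit POLR2B at 7949 bp.

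Genes of the cell cycle, DNA repair, centrosomes and cilia formed the other large block. DNA repair genes had an added region in 20 of 74 (27.0%, 17.4% to 38.6%), among them ATM, the kinase that signals double-strand breaks, at 5549 bp and the Fanconi anaemia helicase FANCM at 6349 bp. Kinetochore, cohesin and anaphase genes had one in 20 of 85 (23.5%, 15.0% to 34.0%): PLK2 at 9999 bp, the securin gene PTTG1 at 8949 bp, SMC5 at 7099 bp and the cohesin loader NIPBL at 7049 bp. CDC40, counted here by its name, is a splicing factor. Centrosome and cilia genes were at 23 of 109 (21.1%, 13.9% to 30.0%), with IFT80 at 6949 bp and CEP135 at 6799 bp, although the 5 TTC genes among them were caught by their name and not all act there. Replication licensing and fork genes were at 7 of 47 (14.9%), with the licensing inhibitor GMNN at 6549 bp, and cyclins and CDKs at 8 of 56 (14.3%), with the G1 kinase CDK6 at 9599 bp and CDK17 at 6349 bp. Many of the repair regions were short: their median was 4349 bp, against 5099 bp over all genes with an added region.

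Protein folding and turnover followed. Chaperones had an added region in 21 of 94 (22.3%, 14.4% to 32.1%), and in 16 of 57 with a CpG promoter (28.1%). HSPA8, the constitutive HSP70, had 8849 bp, HSPA1B, a stress-induced HSP70 with a near-identical neighbour, 7449 bp, and HSPE1, the mitochondrial co-chaperonin, 7249 bp. Proteasome subunits were at 8 of 49 (16.3%), with PSMB2 at 6799 bp and PSMA2 at 4949 bp. RING, TRIM and F-box genes were at 33 of 251 (13.1%, 9.23% to 18.0%), with TRIM8 at 8199 bp, FBXO5, an inhibitor of the anaphase-promoting complex, at 6749 bp and RNF168, which ubiquitinates histone H2A at DNA breaks, at 6249 bp. Ubiquitin-conjugating enzymes and deubiquitinases were at 14 of 130 (10.8%), with USP1 at 5849 bp, and autophagy genes at 4 of 33 (12.1%), with ATG12 at 6349 bp. In vesicle traffic, coat, SEC, VPS and sorting nexin genes were at 33 of 174 (19.0%, 13.4% to 25.6%), with VPS37B at 10299 bp and SNX5 at 9549 bp, and RAB and ARF GTPases at 14 of 91 (15.4%), with ARF4 at 6199 bp. Respiratory chain genes were at 14 of 117 (12.0%), with regions of a median of 4174 bp, ATP5F1E and NDUFB3 having 5749 bp each. Solute carriers were at 23 of 371 (6.20%, 3.97% to 9.16%), with the phosphate carrier SLC20A1 at 9599 bp and the glutamine carrier SLC38A2 at 9799 bp.

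**Figure D4:**
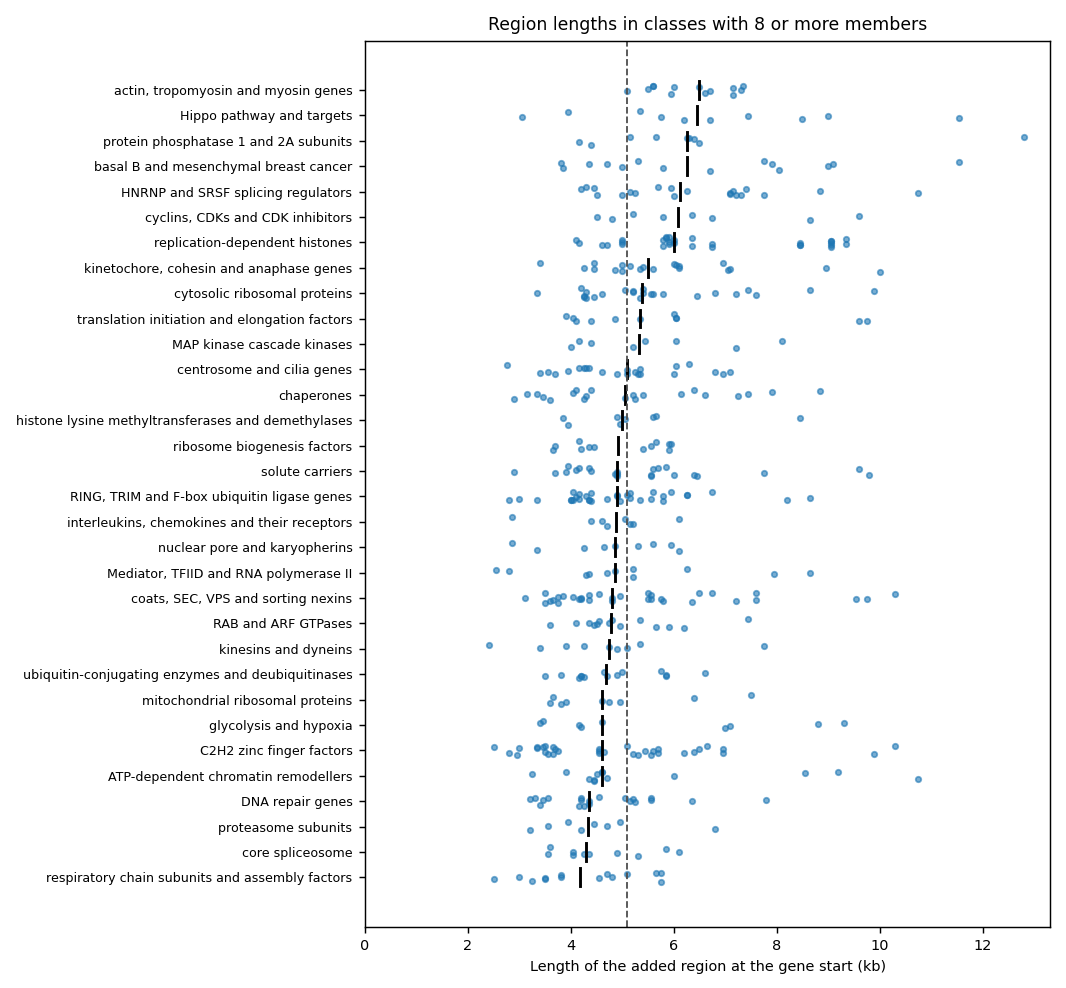
Length of the added region at each member's start (horizontal axis, kb) in gene groups with 8 or more members, one point per gene, with the group median as a black bar and the 5099 bp median over all genes with an added region as a dashed line. Medians run from 4174 bp for respiratory chain genes to 6499 bp for actin, tropomyosin and myosin genes, and the points of all groups overlap.

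Genes that mark MDA-MB-231 cells were frequent. Of 30 markers of basal B and mesenchymal breast cancer, the class to which this cell line belongs, 14 had an added region (46.7%, 28.3% to 65.7%), and ANXA1 and FOSL1 had one shared with 1 μM. They included CCN1 at 11549 bp, the intermediate filament gene VIM at 9099 bp, AXL at 8999 bp and CD44 at 8049 bp, and also CCN2, FN1, ITGA6, LOX, MET and SNAI2. Of 25 luminal markers only XBP1, a factor of the unfolded protein response, had one, with 4149 bp (4.00%, 0.101% to 20.4%). None of 18 blood cell, 12 hepatocyte and 12 neuron markers had one, which allows shares of up to 18.5%, 26.5% and 26.5%. Basal B markers were thus listed more often than markers of the other cell types. The study named CD44, ITGA6 and SNAI2 from these same libraries, so this count is not independent evidence. A marker without H3K4me3 could not be listed, and the lists hold no value that shows which markers carried it before treatment.

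In the Hippo pathway, which restrains growth through YAP and TAZ, 10 of 26 genes had an added region (38.5%, 20.2% to 59.4%). None of the 26 had a region shared with 1 μM, but only 0.498% of all protein-coding genes had one, so this absence says little. The 10 with an added region included the kinases and scaffolds LATS1, STK3, SAV1 and AJUBA, and the coactivator YAP1 with its DNA-binding partner TEAD1. The others were the targets CCN1, CCN2, ANKRD1 and AXL. The STK3 region lay more than 3 kb from the start of its canonical transcript. The TEAD1 region had 8499 bp and the AJUBA region 7449 bp. CCN1, CCN2 and AXL are also on the basal B list, so these groups are not independent. In TGF-beta and BMP signalling 7 of 45 genes had one (15.6%, 6.49% to 29.5%): the ligand gene TGFB2 at 8199 bp, the effector SMAD3 at 7699 bp, the receptor BMPR2 at 6399 bp, with ACVR2A, BMPR1A and the ubiquitin ligase SMURF1. BMP2K, caught by its name, is a kinase of clathrin traffic. The receptor TGFBR2 and SMURF2 had a region shared with 1 μM.

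MAP kinase cascade kinases were at 8 of 46 (17.4%, 7.82% to 31.4%), with MAP4K4 at 8099 bp, MAP4K3 at 7199 bp and MAP3K1 at 6049 bp. Dual-specificity phosphatases, counted by the symbol DUSP and only some of which oppose these kinases, were at 4 of 24 (16.7%, 4.74% to 37.4%). They were DUSP1 at 8449 bp, DUSP5 at 7549 bp, DUSP14 at 7099 bp and DUSP10 at 4849 bp, while DUSP4 and DUSP6 had regions shared with 1 μM. Subunits of protein phosphatases 1 and 2A were at 9 of 61 (14.8%, 6.98% to 26.2%), with PPP1R18 at 12799 bp and the catalytic subunit PPP1CC at 6499 bp. Of receptor tyrosine kinases, 3 of 47 had one (6.38%, 1.34% to 17.5%). These were EPHA2, with a region of 13999 bp that reached 11763 bp into the gene, AXL, and MET at 5299 bp. Interleukin and chemokine genes were at 8 of 148 (5.41%, 2.36% to 10.4%), and 4 of the 8 were neutrophil-attracting chemokines of the CXCL cluster on chromosome 4, with CXCL3 at 5199 bp, CXCL1 at 5149 bp and CXCL2 at 5049 bp, beside CXCL8. WNT and Frizzled genes were at 2 of 42 (4.76%), the coreceptor LRP6 and the effector TCF7L2. Apoptosis regulators had 6 of 34 (17.6%, 6.76% to 34.5%), with the inhibitors BIRC3 at 7399 bp and CFLAR at 7349 bp, the BH3-only gene PMAIP1 at 7299 bp and the death receptor TNFRSF10B at 6549 bp. A further 4, APAF1, BCL2A1, BCL2L1 and MCL1, had regions shared with 1 μM.

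The adhesion and cytoskeleton groups showed the same unevenness. Integrins had an added region in 4 of 26 (15.4%, 4.36% to 34.9%): ITGA3 at 8949 bp, ITGA6 at 5799 bp, ITGA1 at 4699 bp and ITGAV at 4099 bp, and ITGA2 had one shared with 1 μM. No beta subunit had an added or a shared region within 3 kb of its outermost start, and other starts were not checked for shared regions. Collagens and laminins were at 7 of 56 (12.5%), with COL13A1 at 7949 bp, LAMB3 at 7749 bp and COL8A1 at 6599 bp. Of 88 cadherins and protocadherins only CDH11, a mesenchymal cadherin, had one (1.14%, 0.0288% to 6.17%), and at 9199 bp it was long. Kinesins and dyneins were at 9 of 68 (13.2%), with KIF18A at 7749 bp, and actin, tropomyosin and myosin genes at 13 of 98 (13.3%). All 13 of the last group had a CpG promoter, out of 50 that did, and ACTR3 of the Arp2/3 complex had 7349 bp, the crosslinker ACTN4 7299 bp and TLN1, which links integrins to actin, 7149 bp.

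In glucose use and the response to low oxygen, 9 of 37 genes had an added region (24.3%, 11.8% to 41.2%): the vasodilator peptide gene ADM at 9299 bp, the glycolytic enzymes ENO1 at 8799 bp and PKM at 6999 bp, and the oxygen sensor EGLN1 at 7099 bp, with ANKRD37, EGLN3, NDRG1, P4HA1 and PGAM1. HIF1A had a region shared with 1 μM. Sterol and fatty acid genes were at 3 of 36 (8.33%, 1.75% to 22.5%). Among them, INSIG1 and INSIG2, which hold back sterol synthesis when sterols are plentiful, had 4899 and 4199 bp. No cytochrome P450 or UGT gene (0 of 77), olfactory or taste receptor (0 of 441) or keratin-associated or late cornified gene (0 of 124) had one. Neither did any potassium, sodium or calcium channel gene (0 of 135), and 61 of these have a CpG promoter.

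Of 40 genes named in the study and annotated here, 8 had an added region (20.0%, 9.05% to 35.6%): BRCA1, CD44, ITGA6, KDM5A, RPL30, SIN3A, SMAD3 and SNAI2. The study chose part of this list on these same libraries, so the count is not independent evidence. The ITGA6 region began only 231 bp upstream of the start and ran 5567 bp into the gene, and the SNAI2 region, of 4699 bp, reached into exon 3 of 3. At 2.5 μM no other of the 40 genes had a reduced region within 3 kb of its outermost annotated start. Among these were ESR1, CDH1, SNAI1, TWIST1, NANOG, POU5F1, SOX2 and KDM5B. A reduced region at a start farther inside a gene is missed by this count. For ITGB1 the nearest region, one shared with 1 μM, lay 45170 bp from the outermost start. The region nearest to CTNNB1, the beta-catenin gene, lay 3218 bp from its outermost start, just beyond the window. Its distance from other starts of that gene was not measured, so CTNNB1 cannot be taken as free of a reduced promoter. The BRCA1 call depends on the annotation: the region covered the start of an extended BRCA1 transcript and lay 42820 bp from the start of the canonical one. With BRCA1 included, 105 of the 1810 genes (5.80%) had a canonical start more than 3 kb from the region. Among them were CCND3, SLC3A2, UBE2D3, FOXN3, MAPK10, SLC18B1, WDR12, STK3 and EGLN3.

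At the edge of the rule, 9 added regions lay within 10 kb of a 1 μM region. The closest was the region at DNAI4 and MIER1, 651 bp away, and the next, on chromosome 6, was 751 bp away and had no protein-coding gene start within 3 kb, although it covered a canonical transcript start. On the other side of the rule, the smallest overlap among shared regions was 79.1% of the 2.5 μM region, at APAF1 and IKBIP, followed by 90.9% at MIR21 and 91.5% at FUT8. No region was near the boundary by overlap, while the median distance from an added region to a 1 μM region on the same chromosome was 6348 kb. The 5 longest added regions were at a VENTX pseudogene on chromosome 13 (15799 bp), on chromosome 1 with no protein-coding gene start within 3 kb (15749 bp), at IRF2BP2 (15549 bp), at an antisense transcript of NFIB (14699 bp) and at APOLD1 (14449 bp). Placement by gene start misses some promoters here: the second of these regions covered the canonical start of a protein-coding gene whose annotated gene start lies farther away, the fourth that of NFIB and the fifth that of CDKN1B, a CDK inhibitor gene. The shortest, of 199 bp, lay on chromosomes 10 and X and had no gene start within 3 kb.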

How the data were processed

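The authors aligned single-end reads to hg19 (GRCh37) with Bowtie (version 1.0.0), allowing reads that match several places, and called regions that differed from untreated cells with SICER-df. The lists used here carry an FDR of 1e-15 in their names. The deposited columns used give positions alone, with no measured value, and the files have no header. Depth per library is unknown here, and with 1 library per condition no value has a replicate error. Increased regions at 1 μM were not analysed here, and some genes and 1 gene group are not reported here.

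Regions were compared by overlap and placed on gene starts of GENCODE release 44 mapped to GRCh37 with a window of 3 kb. GC content and CpG ratio were taken over 1 kb to either side of the start, and motifs were searched as exact letters. Gene groups are lists or symbol patterns, chosen, like the regions, with earlier results of these data known. Of the apoptosis list 34 symbols were annotated, and CD24 was not. In each group the up to 4 genes with the longest region over the start were named, with all members from the study's genes. Some further members are named without a length, outside this rule, after their values were seen. Overlaps and placement were tested on simulated regions and against bedtools (version 2.31.1). Python 3.11.15 was used with pandas 2.3.3, scipy 1.17.1 and pysam 0.24.0.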

Additional observations from a re-analysis of the deposited data

How the results depend on the processing

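The number of added regions was 1899 to 1920 under all alternatives run, and the number of protein-coding genes 1755 to 1995. No alternative changed the FDR of the lists, which decides whether a region counts as added, so dependence on it was not tested. Counting an overlap under 50% as added could not change the number, since the smallest overlap was 79.1%. With a window of 10 kb the share of regions near a protein-coding start was 76.5%, the share of genes 9.79% and the share with a CpG promoter 65.8%. With the starts of all protein-coding transcripts these were 84.5%, 9.93% and 64.7%. With the canonical start, chosen after the data were seen, the first was 79.9% and the last 65.4%. A CpG promoter cutoff of 55% GC and a ratio of 0.65 gave 41.4%, and a ratio of 0.6 alone 82.6%. The number of groups above the share of all genes was 42 to 44. Counts of homeobox factors ranged from 1 to 4 and of cadherins from 1 to 2. Motifs were searched in 1 window only. No paired analysis was possible because the study has a single library per condition, and leaving out a replicate was not possible for the same reason. What depth limits could not be assessed, since the lists hold no reads.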

Other observations

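Symbol families outside the gene groups were looked at after their values were seen, and those named here were picked for their high or low counts, beside 9.04% of all protein-coding genes. Of 18 non-receptor tyrosine phosphatases (PTPN), which remove phosphate from tyrosine, 6 had an added region (33.3%, exact 95% interval 13.3% to 59.0%): PTPN1, PTPN4, PTPN12, PTPN13, PTPN14 and PTPN21. Of 13 NAA genes, for N-terminal acetyltransferases, 4 had one (30.8%, 9.09% to 61.4%), as did 4 of 12 THAP zinc finger genes (33.3%, 9.92% to 65.1%). The intervals held the background share for COP9 signalosome subunits (COPS, 3 of 9, 7.49% to 70.1%), METTL genes (6 of 27, 8.62% to 42.3%) and TRMT tRNA methyltransferase genes (4 of 17, 6.81% to 49.9%). No added region was found at CFAP cilia and flagella genes (0 of 48, up to 7.40%), PDE genes (0 of 26, up to 13.2%) or ZDHHC palmitoyltransferase genes (0 of 24, up to 14.2%). Of 8 NOTCH and NOTCH2NL genes the 4 with an added region were NOTCH2NLA, NOTCH2NLB, NOTCH2NLC and NOTCH2NLR, near-identical copies whose reads cannot be told apart with certainty.

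By chromosome, the share of protein-coding genes with an added region was highest on chromosomes 6 (16.7%), 4 (15.8%), 5 (15.1%) and 14 (14.8%), and lowest on chromosomes 22 (1.56%), 16 (2.44%) and 19 (2.70%). Among genes with a CpG promoter the shares were 23.1%, 22.5%, 20.5% and 20.3%, and then 2.87%, 2.91% and 3.58%. The lines of the deposited list are not in order of position, and what orders them is not given in the sources used here. Regions shared with 1 μM had a median line of 76 among the 2063 lines, and added regions one of 1104.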
